A study of Mus musculus with 6 samples.

Results

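The mitochondrial ribosome translates the few proteins that the mitochondrial genome encodes, all of them core subunits of the oxidative phosphorylation complexes. Its rRNAs come from mitochondrial DNA, whereas its proteins are made in the cytosol from nuclear genes and imported. Many of these proteins have a counterpart in the bacterial ribosome, and others arose in mitochondria. The nuclear genes were taken here as the protein-coding genes whose symbol is Mrpl or Mrps followed by a digit in GENCODE M21. This rule found 78 of the 31053 genes counted, 49 named Mrpl and 29 named Mrps, on 17 chromosomes. A name does not always give the subunit, because the products of Mrps18a and Mrps30 sit in the large subunit, and Mrps36 encodes a component of the α-ketoglutarate dehydrogenase complex. By the known place of each protein, 51 genes belonged to the large subunit and 26 to the small subunit, with Mrps36 in neither.

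RNA of freshly sorted quiescent muscle stem cells (qMuSCs) from resting hindlimb muscles was sequenced, with a library for each of 6 mice aged 3 to 4 months. The 3 control mice (c124, c129 and c130, called WT) had the genotype Pax7nGFP/+;Pax7+/+;Dio2Fl/Fl, and the 3 cD2KO mice (fl125, fl126 and fl128) had the genotype Pax7nGFP/+;Pax7-CreERT2/+;Dio2Fl/Fl. All 6 mice therefore carried the GFP reporter used for the sort and floxed alleles of Dio2, the gene of type 2 deiodinase (D2), which converts the prohormone T4 to active thyroid hormone, and all received tamoxifen. The Cre recombinase, expressed from Pax7 and activated by tamoxifen, was present in the cD2KO mice alone, so the effects of the Cre allele and of Dio2 loss cannot be told apart. The comparison asks how the RNA of resting MuSCs differs when D2 is removed from them.

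Total counts were between 2184073 and 3897787 per mouse, and levels are given as CPM, counts scaled to a library of 1e6 with TMM factors. Dio2 had 21, 5 and 10 counts in the WT mice and 15, 5 and 1 in the cD2KO mice, too few for the test, and counts over the whole gene do not separate the deleted part. Pax7, the transcription factor that marks MuSCs, was detected in every mouse, with 213 to 434 CPM in WT and 316 to 691 CPM in cD2KO mice. At an unadjusted p under 0.05 in edgeR, which 12% of all genes tested passed, 3 of the 12 MuSC markers were higher (Cdh15, Itga7 and Myf5) and 1 lower (Cxcr4) in cD2KO mice, with a lowest adjusted p of 0.171. The summed CPM of the 12 MuSC markers was 1237 to 1580 in WT and 1521 to 1868 in cD2KO mice. Several markers of other cell types differed between the groups. The summed CPM of 16 immune markers was 4868 to 8752 in WT and 231 to 3397 in cD2KO mice, the lowest in fl125, with 1 of the 16 at 0 in all mice and 4 of 14 tested called lower. All 14 immune markers tested lay below 0, with a median log2 fold change of -1.79. Of these, 13 (92.9%) were lower in every cD2KO mouse, beside 10% of all genes tested. The sum of 12 mural markers was 6227 to 10450 in WT and 12510 to 18680 in cD2KO mice, the highest in fl128. Of the 12, 7 were called higher (Acta2, Cnn1, Des, Mcam, Myh11, Notch3 and Tagln). Rgs5, Pdgfrb, Kcnj8, Abcc9 and Cspg4 were not called, and 3 of the 12 lay below 0. Of 11 endothelial markers tested 6 were called lower, among them Flt1 and Pecam1, with a median log2 fold change of -1.24 over the 11. The log2 fold changes of 2 lay above 0, and Esam, not called, was higher in every cD2KO mouse (0.32, SE 0.23). The sum of the endothelial markers, to which Esam contributed most, was 306 to 433 CPM in WT and 252 to 316 CPM in cD2KO mice. Of 8 fibroadipogenic markers 2 were called lower, and their sum was 3625 to 6203 and 2226 to 4974 CPM. None of these 3 lists had a marker at 0 in all mice. Xist had at most 1 count in a mouse, and the Y-linked Ddx3y was present in all 6 with overlapping groups (94.5 to 155 CPM in WT and 117 to 122 CPM in cD2KO mice), whereas the Y-linked Eif2s3y was lower in every cD2KO mouse (log2 fold change -1.56, SE 0.32, adjusted p = 0.0886 in edgeR). The part of these cells in the values that follow was not tested, and in RNA from a sorted population fewer cells of a type and less RNA per cell cannot be told apart.

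Few mitochondrial ribosomal protein RNAs changed in cD2KO qMuSCs. Of the 78 genes, 74 passed the expression minimum (a mean of DESeq2-normalized counts above 10) and were tested by edgeR's quasi-likelihood test together with all other genes that passed, 11633 in total. At an unadjusted p under 0.05, 2 were higher in cD2KO (Mrps7 and Mrps6) and 1 was lower (Mrps18c). These 3 make up 4.05% of the 74, and 12% of all genes tested were called in either direction (5.34% higher and 6.62% lower). None of the 74 had a Benjamini-Hochberg adjusted p under 0.1 in edgeR, where 0.774% of all genes did (0.0086% at an adjusted p under 0.05), and their lowest adjusted p was 0.236. The Wald test of DESeq2 called 2 of them at an unadjusted p under 0.05, where it called 11.4% of all genes, and none at an adjusted p under 0.1.

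The size of the differences was small as well as their number. The log2 fold changes of the 74 genes ran from -0.65 to 0.70, and 71 of them were under 1.5-fold in either direction. Their median was 0.11, beside -0.02 for all genes tested, and 49 of 74 (66.2%) lay above 0, beside 48.1% of all genes. The 95% interval of the fold change stayed between -1 and 1 on the log2 scale, that is within 2-fold, for 56 of 74 genes (75.7%), beside 49.2% of all genes tested. For the remaining genes a 2-fold difference lay inside the interval, as in Mrpl9, whose interval ran from -1.80 to 0.98. The SD of log2 CPM between mice of a group had a median of 0.27 over the 74 genes and 0.37 over all genes tested. The level was also higher, with a median of 42.9 CPM over the 74 genes and 26.1 CPM over all genes tested. Its part in the narrower intervals and the lower SD was not tested.

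**Figure D1:**
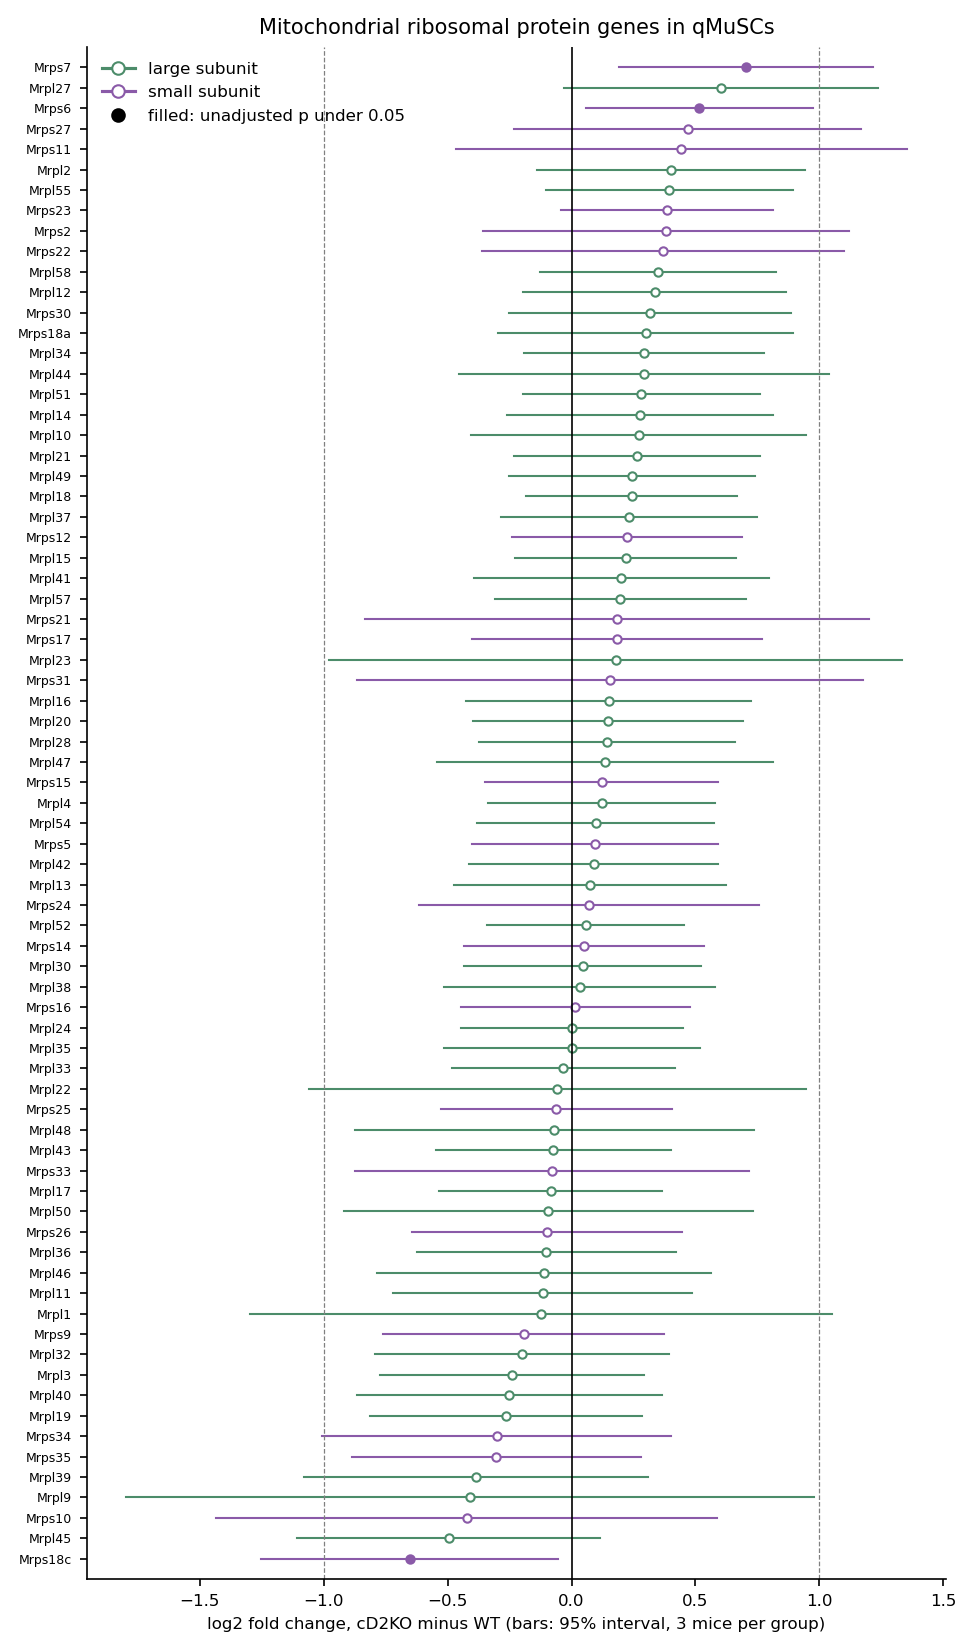
Log2 fold change (cD2KO minus WT) of each of the 74 mitochondrial ribosomal protein genes tested, with its 95% interval from 3 mice per group, ordered by size and colored by subunit, with dashed lines at a 2-fold difference. The filled points are Mrps7 (0.70), Mrps6 (0.52) and Mrps18c (-0.65), all of the small subunit, and the intervals of the other 71 genes include 0.

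The sequences around the start sites of the 3 called genes and of the pair with the highest level per length are given first, because they show the motifs described further on. They were copied from the RefSeq promoter table of GRCm38.p6, the build of mm10, and are written on the plus strand, on which all 5 genes lie. Capitals mark the YY1 motif AAGATGGC in Mrps7, 4 copies of the SP1 motif GGGCGG in Mrps6 (the first pair overlapping), the E-box CACGTG and the ETS motif CCGGAAG (here on its other strand, as CTTCCGG) in Mrps18c, and the ETS motif on either strand in Mrpl52 and Mrpl34. Stretches that lay in an annotated exon were kept to 30 bases, as in Mrps7 (chr11:115604147-115604176, within its first exon) and Mrps18c (chr5:100798592-100798621, which reaches into the first exon of Helq on the other strand). Those of Mrps6 (chr16:92058150-92058269), Mrpl52 (chr14:54426789-54426908) and Mrpl34 (chr8:71464806-71464925) are 120 bases long and lie upstream of the gene, outside every exon.
Mrps7: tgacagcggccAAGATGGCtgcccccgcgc
Mrps6: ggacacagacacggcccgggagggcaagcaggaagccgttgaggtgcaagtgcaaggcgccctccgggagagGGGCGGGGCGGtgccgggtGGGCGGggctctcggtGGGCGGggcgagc
Mrps18c: gggtCACGTGaCTTCCGGcccgggaagcgc
Mrpl52: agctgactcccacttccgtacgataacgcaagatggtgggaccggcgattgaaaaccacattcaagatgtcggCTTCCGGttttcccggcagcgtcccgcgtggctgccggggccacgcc
Mrpl34: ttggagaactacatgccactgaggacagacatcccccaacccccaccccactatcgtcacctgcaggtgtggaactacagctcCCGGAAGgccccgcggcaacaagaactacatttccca

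Mrps7 (ENSMUSG00000046756, plus strand of chromosome 11 from 115603925 to 115608036) encodes a protein that binds the small-subunit rRNA in the head of that subunit. It was measured at 28.3 (c124), 29.0 (c129) and 25.1 CPM (c130) in WT and at 45.5 (fl125), 42.0 (fl126) and 46.7 CPM (fl128) in cD2KO mice, the order in which the mice are given throughout. Every cD2KO mouse lay above every WT mouse, and the mice of a group were close to each other. The mean level was 27.5 ± 2.09 CPM over WT and 44.8 ± 2.49 CPM over cD2KO mice (SD, 3 mice a group). The log2 fold change was 0.70 with an SE of 0.24 and a 95% interval from 0.19 to 1.22, and its adjusted p was 0.236 (edgeR, Benjamini-Hochberg). It was the only one of the 74 genes that kept an unadjusted p under 0.05 whichever mouse was left out, with log2 fold changes between 0.64 and 0.76. Mrps7 shares 127 exon bases with Gga3 and 119 with Mif4gd, both on the opposite strand, and the use of strand in counting is not given in the sources used here. Gga3, whose start site lies 126 bp from that of Mrps7, had a log2 fold change of 0.23 with an SE of 0.24.

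Mrps6 (ENSMUSG00000039680, plus strand of chromosome 16 from 92058270 to 92112227) encodes a protein of the platform of the small subunit. Its CPM were 93.5, 128 and 98.8 in the WT mice and 157, 122 and 178 in the cD2KO mice. The cD2KO mouse fl126 lay below the WT mouse c129, so the groups overlapped. The log2 fold change was 0.52 with an SE of 0.21 and a 95% interval from 0.06 to 0.97 (adjusted p = 0.365, edgeR). The call was lost without c124 (log2 fold change 0.43), without c130 (0.46) and without fl128 (0.39), and under total count scaling (0.44). Mrps6 shares 159 exon bases with Slc5a3, an inositol transporter gene, and 305 with Gm49711, both on the same strand, so that reads there cannot be assigned with certainty. Slc5a3 itself had a log2 fold change of -0.14 with an SE of 0.30.

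Mrps18c (ENSMUSG00000016833, plus strand of chromosome 5 from 100798627 to 100804471) encodes the mitochondrial counterpart of bacterial S18 in the small subunit. It was measured at 29.1, 40.1 and 41.4 CPM in the WT mice and at 20.9, 28.5 and 20.5 CPM in the cD2KO mice. Every cD2KO mouse lay below every WT mouse, although fl126 was within 1 CPM of c124. The log2 fold change was -0.65 with an SE of 0.28 and a 95% interval from -1.25 to -0.06 (adjusted p = 0.379, edgeR). The call was kept without c124 (-0.80) or fl126 (-0.82) and lost without c129 (-0.57), c130 (-0.56), fl125 (-0.55) or fl128 (-0.56), as well as with the DESeq2 Wald test (-0.63).

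The paralogs of Mrps18c were also measured. Mrps18a, whose product took up a place in the large subunit, had 19.8, 33.0 and 32.7 CPM in WT and 35.1, 33.7 and 36.0 CPM in cD2KO mice, a log2 fold change of 0.30 with an SE of 0.28 that did not pass the test (adjusted p = 0.737, edgeR). The groups did not overlap, but c129, c130 and all cD2KO mice lay close together, and c124 alone was low. Mrps18b, the other small-subunit paralog, had between 0 and 1.72 CPM in the 6 mice, at or near the 0.772 to 1.37 CPM that 3 counts stand for, and could not be compared.

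Across the table the CPM of the 3 cD2KO mice and of the 3 WT mice did not overlap for 9 of the 74 genes (12.2%), beside 18.1% of all genes tested. The 7 that were higher in every cD2KO mouse were Mrpl15, Mrpl27, Mrpl49, Mrps18a, Mrps23, Mrps30 and Mrps7, beside a background of 8.05% of all genes. The 2 that were lower were Mrpl3 and Mrps18c, beside a background of 10%. Mrpl27, a counterpart of the bacterial protein that reaches toward the peptidyl transferase center, had 21.9, 14.5 and 16.0 CPM in WT and 26.9, 28.2 and 24.9 CPM in cD2KO mice, with a log2 fold change of 0.60, an SE of 0.30 and an adjusted p of 0.448 in edgeR. Mrps23, a mitochondria-specific protein of the small subunit, had 84.0, 68.7 and 93.3 CPM in WT and 106, 117 and 98.2 CPM in cD2KO mice (log2 fold change 0.38, SE 0.20, adjusted p = 0.481 in edgeR). Both genes were separated between the groups but did not pass the test, and they are named here because of their values. Without c124 Mrpl27 was called higher (log2 fold change 0.80, SE 0.34), and without fl126 so was Mrpl2, a protein near the peptidyl transferase center (0.62, SE 0.26).

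**Figure D2:**
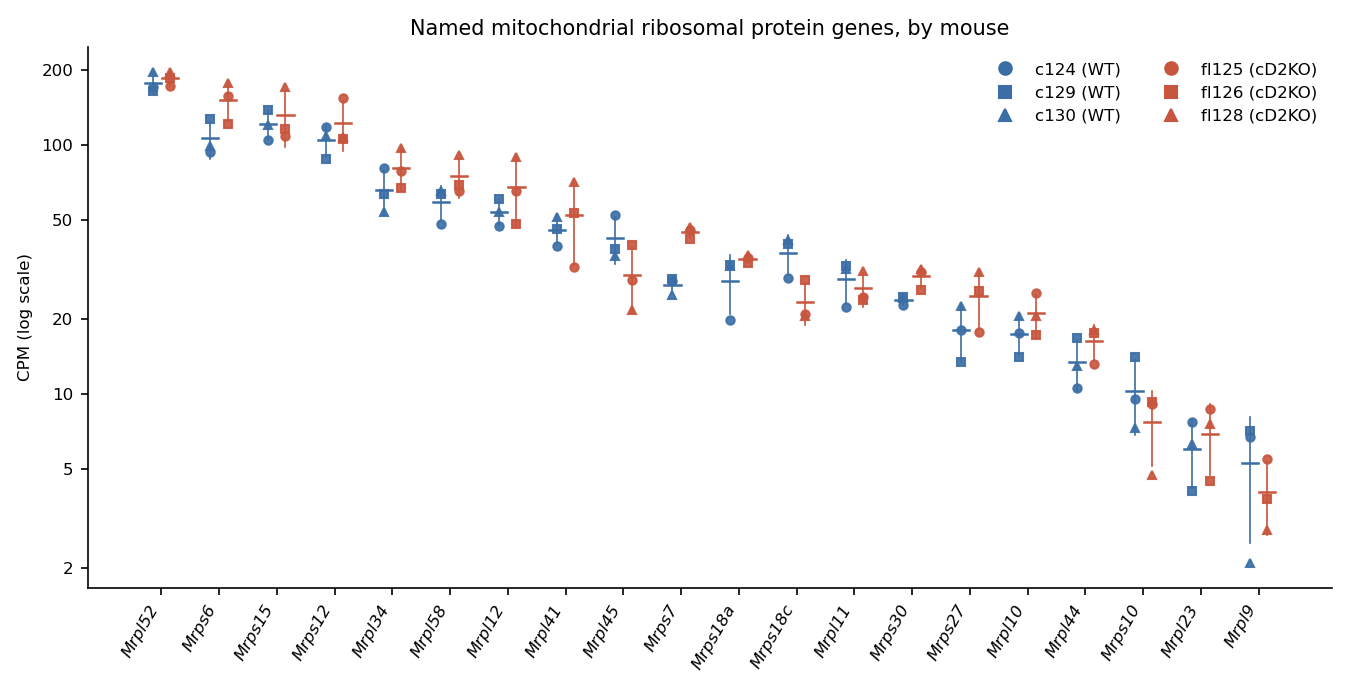
CPM (log scale) of 20 named mitochondrial ribosomal protein genes in each mouse, ordered by mean level, with WT mice in blue and cD2KO mice in red, a horizontal line at each group's mean and a vertical line for 1 SD (n = 3). Mrps7 is separated upward (25.1 to 29.0 against 42.0 to 46.7 CPM) and Mrps18c downward (29.1 to 41.4 against 20.5 to 28.5 CPM), and for most of the others, such as Mrpl52 and Mrps15, the points of the groups interleave.

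All 3 called genes encode small-subunit proteins with a bacterial counterpart. They make up 12.5% of the 24 small-subunit genes tested, close to the 12% of all genes. In the class with a bacterial counterpart they were 3 of 15 genes, the median was 0.12 on the log2 scale, and 12 of 15 lay above 0, beside 48.1% of all genes. None of the 9 small-subunit genes specific to mitochondria that were tested was called by edgeR at an unadjusted p under 0.05, and their median was -0.06. In the large subunit none of 50 genes was called by edgeR at that threshold, nor by the DESeq2 Wald test or limma voom, with medians of 0.13 over the 30 genes with a bacterial counterpart and 0.09 over 20 specific to mitochondria. The large and small subunits had the same median, 0.11, and a difference between the classes in the number of calls was not tested.

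Within the small subunit, the other genes with a known role in decoding and assembly had overlapping groups. Mrps12, the counterpart of the bacterial protein at the decoding center, had 118, 88.0 and 109 CPM in WT and 155, 106 and 107 CPM in cD2KO mice (log2 fold change 0.22, SE 0.22). Mrps15, a protein that binds the small-subunit rRNA, had 105, 139 and 120 CPM in WT and 108, 117 and 170 CPM in cD2KO mice (0.12, SE 0.22). Both had their highest value in a cD2KO mouse, fl125 for Mrps12 and fl128 for Mrps15, with the remaining cD2KO mice inside the WT range. Mrps27, a pentatricopeptide repeat protein that binds RNA, had 18, 13.4 and 22.6 CPM in WT and 17.8, 25.8 and 30.9 CPM in cD2KO mice (0.47, SE 0.33). The largest of these 3 estimates was also the least precise, and fl125 lay within the WT values of Mrps27. Mrps10, a protein of the head of the subunit, was low, with 9.53, 14.1 and 7.31 CPM in WT and 9.11, 9.29 and 4.74 CPM in cD2KO mice (-0.42, SE 0.47).

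In the large subunit, the stalk that recruits translation factors was represented by 4 tested genes of 5, with a median log2 fold change of 0.18. Mrpl12, the protein of the flexible stalk, which is also known to bind the mitochondrial RNA polymerase, had 47.1, 60.5 and 54.0 CPM in WT and 65.6, 48.1 and 89.7 CPM in cD2KO mice (0.34, SE 0.25). Its anchor Mrpl10 had 17.5, 14.1 and 20.5 CPM in WT and 25.5, 17.2 and 20.5 CPM in cD2KO mice (0.27, SE 0.32). Both genes had their highest value in a cD2KO mouse and a cD2KO mouse inside the WT range. Mrpl11, at the base of the stalk, had 22.4, 32.7 and 31.7 CPM in WT and 24.6, 23.7 and 31.3 CPM in cD2KO mice (-0.12, SE 0.28). Mrpl54 had a log2 fold change of 0.10 with an SE of 0.22, and Mrpl53 had no count in any mouse.

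The central protuberance, a landmark of the large subunit that faces the head of the small one, had a median of 0.03 over 7 genes, none of them called by edgeR or the DESeq2 Wald test at an unadjusted p under 0.05. Mrpl58, which can release peptides from stalled ribosomes as a peptidyl-tRNA hydrolase, had 48.1, 63.9 and 65.4 CPM in WT and 65.1, 69.1 and 91.0 CPM in cD2KO mice (log2 fold change 0.35, SE 0.22). Only c130 among the WT mice exceeded the lowest cD2KO mouse. The genes around the polypeptide exit, where new proteins reach the inner membrane, had a median of -0.03 over 8 genes, with 4 above 0 and 4 below. Mrpl45, which lies next to the membrane at the exit, had 52.5, 38.2 and 35.9 CPM in WT and 28.7, 39.5 and 21.8 CPM in cD2KO mice (-0.50, SE 0.29, adjusted p = 0.526 in edgeR). Mrpl44, with a fold related to RNase III, had 10.6, 16.7 and 12.9 CPM in WT and 13.2, 17.5 and 18 CPM in cD2KO mice (0.29, SE 0.35). These were the lowest and the highest estimate at the exit, and neither gene passed the test. Without fl126 Mrpl45 was called lower, with a log2 fold change of -0.75 (adjusted p = 0.487, edgeR).

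Of the other genes placed in the large subunit, Mrps30 had 22.7, 24.5 and 24.4 CPM in WT and 31.0, 26.1 and 31.9 CPM in cD2KO mice (log2 fold change 0.32, SE 0.27). The groups did not overlap, with the highest WT value (24.5 CPM) close to the lowest cD2KO value (26.1 CPM). Mrpl41, specific to mitochondria, had 39.4, 46.0 and 51.5 CPM in WT and 32.3, 53.3 and 70.7 CPM in cD2KO mice (0.20, SE 0.28). The cD2KO mice thus held both its lowest and its highest value. Mrpl3, which is conserved in bacteria, had 36.3, 34.5 and 36.2 CPM in WT and 31.9, 32.7 and 26.2 CPM in cD2KO mice, with a log2 fold change of -0.24 and an SE of 0.25.

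The 4 genes under the minimum were Mrpl53, Mrps18b, Mrps28 and Mrps36. Mrpl53 had 0 counts in all 6 mice, and a limit of 3 counts stands for 1.37 CPM in the shallowest library, counting error alone being considered. It shares 695 of its 790 exon bases with Gm42688 on the same strand, so reads from either gene cannot be told apart there. The limit therefore holds only for reads that could be assigned to Mrpl53, and its expression is not bounded by it. Mrps28 had 1.04 to 6.38 CPM and Mrps36 0.911 to 3.48 CPM, with overlapping groups. Mrps18b shares 638 exon bases with Gm16279 on the opposite strand. In all, 33 of the 78 genes share exon bases with another annotated gene. Mrpl23, Mrpl48 and Mrps36 have named processed pseudogenes, none of which was in the count table.

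Levels among the genes differed far more than levels between the groups. Per kilobase of merged exons, the mean over the 6 mice ran from 1.12 CPM per kb (Mrps10) to 164 CPM per kb (Mrpl52), a range of 147-fold around a median of 14 CPM per kb. After Mrpl52, the highest levels were those of Mrpl34 (121 CPM per kb), Mrps12 (109.5), Mrps6 (84.5) and Mrps15 (74.8), and Mrpl23 (1.32) and Mrpl9 (1.72) stood next to Mrps10 at the low end. Mrpl52, specific to mitochondria, was even across mice, with 172, 166 and 197 CPM in WT and 173, 186 and 197 CPM in cD2KO mice (log2 fold change 0.06, SE 0.18). Mrpl34, one of the smallest proteins of the large subunit, had 80.6, 63.5 and 54.0 CPM in WT and 78.8, 67.1 and 97.3 CPM in cD2KO mice (0.29, SE 0.23). The low genes were measured less well. Mrpl23, a protein of the tunnel exit, had 4.08 to 7.72 CPM in WT and 4.47 to 8.65 CPM in cD2KO mice (0.18, SE 0.54), and Mrpl9 had 2.09 to 7.05 and 2.84 to 5.46 CPM (-0.41, SE 0.65). The order by length depends on the library type, since the labels name a digital RNA-seq service without saying whether reads cover whole transcripts. Over the 74 genes the rank correlation with exon length was -0.18 for CPM and -0.74 for CPM per kb, a description across genes, which are not replicates, of measures that share the length.

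The summed level of the 78 genes was 3505, 3559 and 3458 CPM in the WT mice and 3448, 3710 and 4267 CPM in the cD2KO mice. The WT mice lay close to each other, fl125 lay below all of them and fl128 far above. The ratio of the group means was 1.09, and the groups overlapped. The sum over the small subunit was 1029, 1044 and 1087 CPM in WT and 1111, 1119 and 1282 CPM in cD2KO mice, which did not overlap. Without Mrps6 the groups overlapped (988 CPM in c130 and 954 CPM in fl125), as they did per 1e6 of the total count without TMM factors (1106 in c130 and 1093 in fl126). The sum over the large subunit was 2474, 2513 and 2367 CPM in WT and 2336, 2591 and 2982 CPM in cD2KO mice, which did. An exact permutation test of 3 mice against 3 cannot give a p below 0.1, so none is given for these sums.

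The single mouse fl128 held the highest value for 31 of the 74 genes, and the other mice for 5 to 12 each. When the log2 CPM of each gene was centered on its mean over the 6 mice, the median over the 74 genes was -0.002, -0.040 and -0.022 in WT and -0.063, 0.000 and 0.209 in cD2KO mice. The shift in fl128 was alike in the large (0.209) and the small subunit (0.205), and over all genes tested the median in fl128 was -0.007. Without fl128 the median log2 fold change of the 74 genes was 0.04, with 41 above 0, and Mrps7 was the only one of them called by edgeR, where 9.27% of all genes were called. Without fl125, the mouse with the lowest immune marker level, the median was 0.17, and Mrpl14, Mrpl51, Mrpl55, Mrps6 and Mrps7 were called higher and none lower, where 15.4% of all genes were called. The mouse fl128 also had the highest mural marker sum, 18680 CPM, and the part of this in the values of fl128 was not tested.

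**Figure D3:**
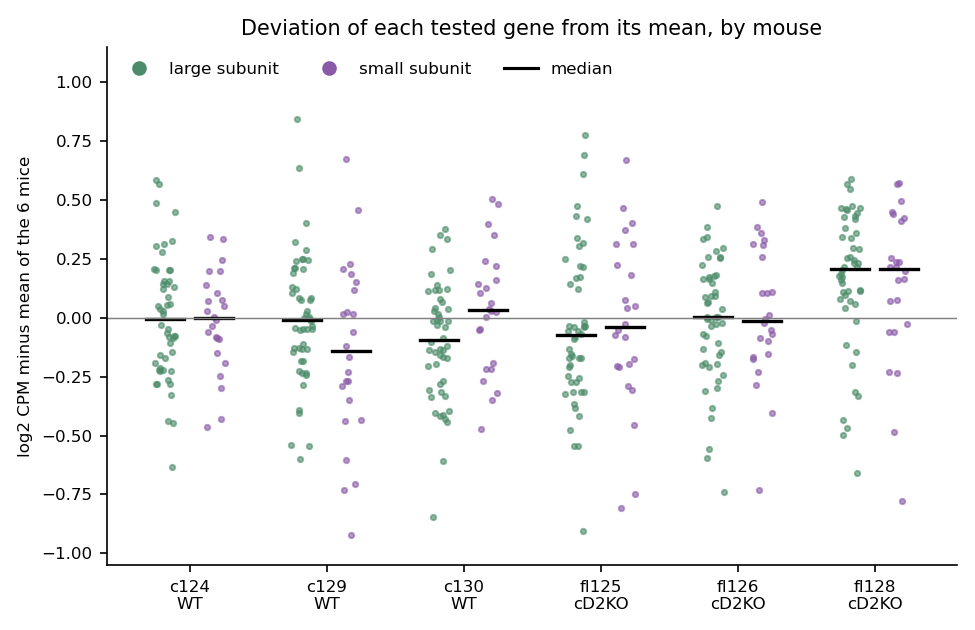
Log2 CPM of each of the 74 tested genes minus its mean over the 6 mice, by mouse and subunit, with the median as a black line. The medians of 5 mice lie near or below 0, and those of fl128 stand at 0.209 for the large and 0.205 for the small subunit.

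The other parts of the mitochondrial translation machinery were measured in the same fit. The 5 mitoribosomal proteins with other symbols (Dap3, Ptcd3, Gadd45gip1, Chchd1 and Aurkaip1) had a median of 0.06 on the log2 scale, and none was called by edgeR at an unadjusted p under 0.05. Dap3, a GTP-binding protein of the small subunit, had 69.8, 60.1 and 73.1 CPM in WT and 62.9, 66.7 and 81.5 CPM in cD2KO mice (0.06, SE 0.20). Of 18 tested genes of mitoribosome assembly and rRNA modification none was called (median 0.06), nor was any of 13 translation factors (median 0.01). Of 18 genes for mitochondrial aminoacyl-tRNA synthetases and the related amidotransferase, 1 was called (5.56%, beside 12% of all genes tested). This was Vars2, the valine enzyme, with 13.1, 15.6 and 26.5 CPM in WT and 24.1, 36.8 and 34.1 CPM in cD2KO mice (0.79, SE 0.33, adjusted p = 0.367 in edgeR), and its groups overlapped. None of 8 genes of mtDNA transcription and replication (median -0.05) and none of 10 regulators of mitochondrial biogenesis (median -0.12) was called by edgeR at that threshold.

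The templates of this machinery, the mRNAs of the mitochondrial genome, had a median of 0.21 on the log2 scale over 12 genes. Of these, 11 (91.7%) lay above 0, beside 48.1% of all genes tested, and 1 was called (8.33%, beside 12%). The called gene was mt-Nd6, a complex I subunit and the only mRNA on the light strand, with 113, 52.0 and 88.1 CPM in WT and 166, 116 and 140 CPM in cD2KO mice (0.73, SE 0.26, adjusted p = 0.273 in edgeR). Every cD2KO mouse lay above every WT mouse for mt-Nd6. The sum over these mRNAs was 159000, 87740 and 111200 CPM in WT and 125800, 138000 and 140300 CPM in cD2KO mice, so the WT mice spanned a wider range than the cD2KO mice and included it.

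Other large families gave a scale for these values. The cytosolic ribosomal protein genes had a median of -0.10 over 84 tested genes, with none higher and 3 lower (Rpl10, Rpl10a and Rpl39). These calls were 3.57% of the 84, beside 12% of all genes tested, and 28.6% of the 84 lay above 0, beside 48.1%. The nuclear genes of complex I, which joins nuclear subunits to products of the mitochondrial ribosome, had a median of 0.22 over 36 genes, with 34 above 0, 4 higher (Ndufa11, Ndufa5, Ndufb7 and Ndufv1) and none lower in edgeR at an unadjusted p under 0.05. The 4 calls were 11.1% of these genes, close to the 12% of all genes tested, while 94.4% lay above 0, beside 48.1% of all genes. The mitochondrial ribosomal protein genes, at 0.11, lay between these medians. The differences between the families were not tested.

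**Figure D4:**
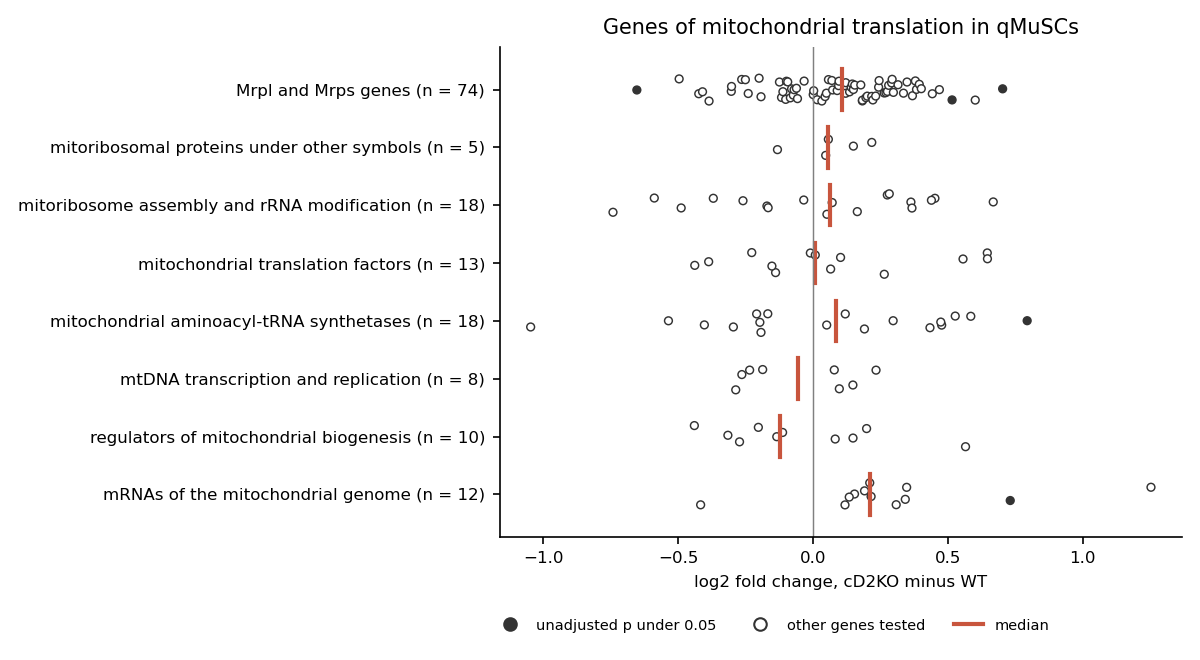
Log2 fold change (cD2KO minus WT) of each tested gene in 8 groups of genes around mitochondrial translation, with filled points for an unadjusted p under 0.05 and a red line at the median of each group. The medians run from -0.12 for the regulators of biogenesis to 0.21 for the mRNAs of the mitochondrial genome, and the filled points are Mrps7, Mrps6, Mrps18c, Vars2 and mt-Nd6.

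The genes shared features of their position. For 33 of the 78 (42.3%) the start of a protein-coding gene on the opposite strand lay within 1000 bp of their own start, beside 15.9% of the 11375 protein-coding genes tested and 10.8% of the 21974 in the table. Several partners also encode mitochondrial proteins. Mrps11 and Mrpl46, which contribute to the small and the large subunit, start 412 bp apart and share 173 exon bases, and their log2 fold changes were 0.44 (SE 0.42) and -0.11 (SE 0.31). Mrpl36 starts 29 bp from Ndufs6, a complex I subunit gene with which it shares 30 exon bases, with -0.10 (SE 0.24) and 0.24 (SE 0.22). Mrps12 starts 172 bp from Sars2, the mitochondrial seryl-tRNA synthetase gene, with 0.22 (SE 0.22) and 0.05 (SE 0.45). Mrpl43 starts 779 bp from Twnk, the mtDNA helicase gene, and shares 507 exon bases with it, with -0.07 (SE 0.22) and -0.29 (SE 0.50). The use of strand in counting is not given, so reads in the shared bases of these pairs may not be separable. None of these genes was called, and the signs within a pair differed in 2 of these 4 pairs. Mrps18c starts 29 bp from Helq, a DNA helicase gene that was under the minimum at 1.45 CPM.

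Promoters of 69 of the 78 genes were found in the RefSeq table, which gives 250 bases before and 50 after a start site. Each motif was searched as plain letters on both strands, and shares are given for the 69 genes and for the 9141 tested genes with a promoter. A gene counted if any of its promoters held the motif, so genes with more start sites had more chances to match. The 69 genes had 75 promoters, and the number for the tested genes is not given here. The ETS motif CCGGAAG, the core that GABPA binds, occurred in 37.7% of the mitochondrial ribosomal protein genes and in 20.1% of the tested genes, among them Mrps18c, Mrpl52 and Mrpl34 as printed above. The YY1 motif AAGATGGC occurred in 17.4% and 5.46%, with Mrps7 among them. The full palindromic NRF1 motif was rare, at 4.35% and 2.38%, and its inner part GCATGCGC, which every copy of the full motif holds, occurred in 11.6% and 5.94%. Counted per gene in this way, the SP1 motif GGGCGG was less frequent than in the tested genes, at 49.3% and 69.6%. So were the E-box CACGTG, at 7.25% and 11.8%, and TATAAA, at 7.25% and 8.69%. The hexamer AGGTCA, to which thyroid hormone receptors bind, occurred in 15.9% and 14.5%, and its direct repeat with a spacing of 4 bases in 0% and 0.0109%. Among all 32851 promoters in the table, the share was 8.86% for the ETS motif, 2.75% for YY1, 0.971% for NRF1, 2.71% for its inner part, 35.7% for SP1, 7.15% for the E-box, 13.6% for TATAAA, 16.3% for AGGTCA and 0.0152% for its repeat. These are matches of letters in a window and no measure of binding, and no test was run on the shares. The median GC content was 58.7% over the 75 promoters of the mitochondrial ribosomal protein genes and 52.7% over all promoters.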

How the data were processed

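The authors deposited raw counts of reads per gene, whole numbers without normalization, with a column for each of 6 mice. The submitters' processing notes name bcl2fastq, STAR 2.6.0a, HTSeq 0.9.1 and mm10, while the annotation, the strand setting and any removal of PCR duplicates are not given in the sources used here. Of 31053 identifiers, 31011 were matched to GENCODE M21. Mice were grouped by the genotype in the labels. The expression minimum, a baseMean from DESeq2 over 10, followed the study's methods, and genes above it were tested with edgeR 4.0.16 in R 4.3.3 (TMM factors, robust quasi-likelihood fit, no covariate). Calls were made at an unadjusted p under 0.05, and Benjamini-Hochberg adjusted p are given beside them. SE and 95% intervals came from the F statistic. In simulated counts on 11633 genes of WT against cD2KO, the share called was 68.8% of 109 genes with a log2 change of 1, 95.6% of 91 with a log2 change of 2 and 4.65% of 11433 without a change.

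The genes named were those called, the 5 highest and 3 lowest per kb, those under the minimum and 14 fixed for their roles. Mrpl3, Mrpl27, Mrpl54, Mrps11, Mrps23, Dap3, the genes called without a mouse and the pairs with close starts on opposite strands were named after their values were seen. The genes and lists were chosen with earlier results of these data known. Alternatives were DESeq2 1.42.0, limma 3.58.1 (voom), 3 other scalings, other minimums, non-robust estimation and leaving out each mouse.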

Additional observations from a re-analysis of the deposited data

How the results depend on the processing

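The number of mitochondrial ribosomal protein genes called higher was 2 and the number lower 1 with limma voom, DESeq2 size factors, upper quartile scaling, edgeR's filter, a minimum mean of 50, no minimum and non-robust estimation. With the DESeq2 Wald test the number lower was 0, with scaling to the total count the number higher was 1 (Mrps7), and at an adjusted p under 0.05 or 0.1 both were 0. Of all genes tested, between 11% (no minimum) and 12.7% (a minimum mean of 50) were called at an unadjusted p under 0.05 in these fits. When each mouse was left out in turn, the number higher ran from 1 to 5, the number lower from 0 to 2 and the median log2 fold change from 0.04 to 0.17. The share of all genes called ran from 7.78% (without c129) to 15.4% (without fl125, where the number higher was 5). Under total count scaling the median was 0.04, with 40 of 74 genes above 0, and Mrpl52 stood at -0.0098 instead of 0.06. The median over all genes tested also moved down with this scaling, from -0.02 to -0.086. When each mouse was left out, the log2 fold change ran from -0.11 (without fl128) to 0.28 for Mrps15, from -0.083 (without fl128) to 0.49 for Mrpl41, from -0.010 (without c129) to 0.42 for Mrpl23 and from -0.28 to 0.0037 (without c129) for Mrpl11, none of them called, and the cause was not tested. Leaving out a mouse leaves a group of 2. No paired analysis was possible because the labels give each mouse its own number and no batch. The mice are separate animals, and a difference of 1 on the log2 scale in a gene under about 10 CPM lies within the interval at this depth. Some genes with higher levels also have such intervals, as Mrps7 (mean 36.1 CPM, up to 1.22) and Mrps18c (mean 30.1 CPM, down to -1.25). The alternatives for the summed level of the small subunit were chosen after the data had been seen.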
